A study of Mus musculus with 6 samples.

Results

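The major urinary protein genes (Mup) of the mouse were examined in liver RNA, with 10 genes chosen by symbol from the 43346 rows of the count table: Mup1, Mup3, Mup7, Mup11, Mup12, Mup14, Mup15, Mup17, Mup20 and Mup21. All 10 were found and all 10 passed the filter on low counts. They were chosen because of their differences between the groups of these libraries, so their values are a description and carry no test. A set of 7, here called the central copies (Mup1, Mup7, Mup11, Mup12, Mup14, Mup15 and Mup17), are near-identical in sequence, and 3 divergent genes at one end of the cluster (Mup3, Mup20 and Mup21) are called peripheral. The table holds 51 rows with a Mup symbol in all. Whole liver was sequenced from 6 samples that all received the FFC diet, named in the series' design text as a dietary MASH (metabolic dysfunction-associated steatohepatitis) model, and a short hairpin RNA (shRNA) delivered by an adeno-associated virus 8 (AAV8) construct. In 3 libraries, numbered 2, 3 and 2600, the hairpin targets S100a11, the gene of a small calcium sensor, and the genotype label reads knockdown (KO). In the control libraries, 28, 30 and 31, the hairpin is scrambled. Strain, age, the promoter of the construct and the number of animals behind a library are not stated, so the spread between libraries may be technical.

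Major urinary proteins are small lipocalins, secreted barrel-shaped carriers of hydrophobic molecules, that hepatocytes release into blood and that pass into urine, where they bind and slowly release volatile pheromones. Their genes lie in a tandem cluster and are transcribed most in adult males, where pulses of growth hormone act through the growth hormone receptor, the kinase Jak2 and the transcription factor Stat5b. Androgens, thyroid hormone, glucocorticoids and the homeobox factor Zhx2 also act on members of the family. Mup20 encodes darcin, the male pheromone protein that attracts females.

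The coding sequences of the central copies are nearly the same, and those of the peripheral genes are not. Over the 21 pairs of central copies the coding identity in GENCODE M21 (build GRCm38, the same assembly as mm10) was 98.3% to 99.6%, with a median of 98.9% and 2 to 8 mismatches per pair. Other coding Mup genes were as alike: Mup2, Mup8, Mup9, Mup10, Mup13, Mup16, Mup18 and Mup19 were 98.3% to 99.8% identical to central copies. Near-identity therefore does not set the central copies apart from these genes. Central copies were 90.1% to 91.3% identical to Mup20, 83.6% to 84.7% to Mup21 and 82.1% to 83.3% to Mup3. Mup3 and Mup21 resembled each other most among the peripheral genes, at 94.7% and 20 mismatches. The stretch below runs 5′ to 3′ from base 91 to base 180 of the coding sequence of Mup7, with the aligned stretch of the other genes, and capitals mark bases that differ from Mup7. The line of Mup11 is also exactly that of Mup1, Mup12 and Mup14.
Mup7: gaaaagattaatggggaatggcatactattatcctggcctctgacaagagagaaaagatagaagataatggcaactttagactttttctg
Mup11: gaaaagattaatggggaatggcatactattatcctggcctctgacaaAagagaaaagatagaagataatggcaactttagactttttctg
Mup17: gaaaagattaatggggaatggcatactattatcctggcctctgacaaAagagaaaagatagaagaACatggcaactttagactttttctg
Mup15: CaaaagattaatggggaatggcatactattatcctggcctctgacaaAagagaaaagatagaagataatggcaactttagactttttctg
Mup20: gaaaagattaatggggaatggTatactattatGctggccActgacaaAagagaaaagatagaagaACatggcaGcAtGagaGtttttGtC
Mup3: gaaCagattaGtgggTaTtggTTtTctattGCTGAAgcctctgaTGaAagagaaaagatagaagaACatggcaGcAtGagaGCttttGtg
Mup21: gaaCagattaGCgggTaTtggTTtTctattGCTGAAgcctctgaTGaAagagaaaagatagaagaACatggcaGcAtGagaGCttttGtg
Within these 90 bases the central copies differed from Mup7 at 1 to 3 positions, Mup20 at 12, Mup3 at 24 and Mup21 at 25.

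Sequence shared with other genes was counted over annotated transcripts of mm10. Of all stretches of 100 bases in a transcript, the part also present in another gene was 55.7% for Mup1, 59.4% for Mup17, 70.6% for Mup11, 75.7% for Mup14, 76.1% for Mup7, 77.5% for Mup12 and 97.3% for Mup15, which has 22 stretches of its own. Mup3 shared 2.23% and Mup21 4.50%, in each case with the other. Mup20 shared 38.8%, all with the pseudogene Mup-ps19. With stretches of 75 bases Mup15 had none of its own. With stretches of 50 bases Mup3 shared 13.3%, Mup21 19.3% and Mup20 50.5%. At that length Mup20 also shared stretches with other Mup genes, Mup10 and the central copy Mup11 among them. The most widely shared stretch of Mup20 was held by 19 genes, Mup20 included. How reads that match several genes were counted, and the read length, are not stated, so the count of any 1 central copy is uncertain and their sum is given beside it.

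RefSeq promoter windows (GRCm38.p6, from 250 bases before to 50 after the start site) exist in the table used for 7 of the 10 genes. Those of 3 central copies and 2 peripheral genes are shown to compare their upstream sequence, from a shared 5′ start towards the TATA-like end tatataa where the window reaches it. They lie on the minus strand of mm10 at chr4:61595851-61596048 (Mup17), chr4:60070476-60070562 (Mup7), chr4:61303999-61304168 (Mup14), chr4:62087322-62087484 (Mup3) and chr4:62150843-62151002 (Mup21). Capitals mark bases that differ from Mup17, and in the run of a and c their place depends on the alignment.
Mup17: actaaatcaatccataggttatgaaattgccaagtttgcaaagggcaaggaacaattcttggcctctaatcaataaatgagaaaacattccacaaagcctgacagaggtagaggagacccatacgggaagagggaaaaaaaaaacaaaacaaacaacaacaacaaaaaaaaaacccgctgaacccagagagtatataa
Mup7: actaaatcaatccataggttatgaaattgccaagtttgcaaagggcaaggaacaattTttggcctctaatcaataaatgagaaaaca
Mup14: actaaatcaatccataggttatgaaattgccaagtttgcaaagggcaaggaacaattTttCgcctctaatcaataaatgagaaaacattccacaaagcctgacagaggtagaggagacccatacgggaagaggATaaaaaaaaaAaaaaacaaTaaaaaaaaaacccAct
Mup3: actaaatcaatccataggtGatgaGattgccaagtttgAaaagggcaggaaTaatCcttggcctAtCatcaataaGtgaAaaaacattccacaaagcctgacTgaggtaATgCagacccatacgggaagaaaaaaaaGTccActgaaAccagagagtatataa
Mup21: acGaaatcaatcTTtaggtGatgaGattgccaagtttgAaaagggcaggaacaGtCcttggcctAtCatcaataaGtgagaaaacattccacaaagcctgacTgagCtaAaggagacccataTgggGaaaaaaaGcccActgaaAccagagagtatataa
Mup7 differed from Mup17 at 1 base of 87, Mup14 at 7 of 170, Mup3 at 17 of 163 and Mup21 at 19 of 160. Mup11 and Mup15 (not printed) differed at 1 of 193 and 1 of 196. Bases of Mup17 that are absent from another line are neither marked nor counted. The lines of Mup3 and Mup21 reach tatataa in fewer bases than the 198 of Mup17, so these numbers understate how far they differ. Motifs were searched on both strands in the whole 300-base windows of 32851 promoters. The Stat5 motif TTCNNNGAA was in 8.30% of all windows, the C/EBP motif TTGCNNAA in 10.8%, and the palindromic glucocorticoid receptor motif in 0.475%, and each was in 0 of 14 Mup windows. TATAAA was in 13.6% of all windows and in 2 Mup windows, those of Mup4 and Mup6, at 27 bases before the start site. These letters are a description of the windows only.

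Depth was 53517387 to 78091845 counts per library, and every level below is in CPM, that is counts scaled by the TMM-adjusted library total. S100a11 itself, the targeted gene, stood at 16.0, 3.55 and 3.41 CPM in the libraries labelled S100a11 shRNA 2, 3 and 2600 and at 15.9, 22.9 and 30.0 CPM in scrambled libraries 28, 30 and 31. The library labelled S100a11 shRNA 2 thus held as much S100a11 as the lowest scrambled library. It also stood nearer to the controls by a statistic summed over genes, in which the most abundant genes weigh most. By the chi-square statistic per gene between the counts of a pair of libraries, where a larger value means less alike and depth adds to it, library 2 was at 235 and 349 from libraries 3 and 2600 and at 193, 223 and 158 from scrambled libraries 28, 30 and 31. Libraries 3 and 2600 were at 147 from each other, and the scrambled libraries at 48.4 to 75.2. The fitted log2 difference of S100a11 was -1.57 ± 0.56 (SE) and did not pass the threshold of 0.05 (edgeR adjusted p = 0.095). The share of counts in Gm26917, a non-coding gene, was 3.99%, 6.44% and 10.8% in libraries 2, 3 and 2600, with 3.16% to 4.42% in scrambled ones. Over all 19352 tested genes the median log2 difference was 0.04, and -0.32 with library totals alone in place of TMM factors. For S100a11 and for the share of counts in Gm26917, libraries 3 and 2600 lay outside the scrambled range and library 2 inside it. The part of all these values in the results was not tested.

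The central copies differed most. Mup7, at chr4:60066469-60070475, stood at 35.7, 990 and 1529 CPM in libraries 2, 3 and 2600 and at 2.56, 1.92 and 1.63 CPM in scrambled libraries 28, 30 and 31. The groups did not overlap, and the fitted difference was 419-fold, or 8.71 ± 1.25 (SE) on the log2 scale. Library 2 lay between the groups, 17.6-fold over the scrambled mean, where libraries 3 and 2600 lay 486-fold and 752-fold over it. Mup17, at chr4:61591929-61595871, was the most abundant central copy of the scrambled libraries, at 11.1, 7.80 and 11.2 CPM. It reached 49.4, 447 and 686 CPM in libraries 2, 3 and 2600, a difference of 39.2-fold. Mup14, at chr4:61300023-61304000, stood at 25.3, 318 and 483 CPM against 5.62, 4.29 and 6.18 CPM, a difference of 51.3-fold. In all of these genes library 2 was the lowest of its group and still above every scrambled library.

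Mup11, at chr4:60658466-60662411, stood at 16.9, 212 and 262 CPM against 1.86, 1.93 and 3.25 CPM (69.3-fold). Mup15, at chr4:61435790-61439743, stood at 20.6, 186 and 195 CPM against 2.24, 2.14 and 2.99 CPM (54.2-fold). It is the copy with hardly any sequence of its own, so its counts depend on how shared reads were treated. The 2 scarcest copies were Mup12 (chr4:60737383-60741326), at 6.07, 21.5 and 16.7 CPM against 0.55, 0.28 and 0.44 CPM (34.8-fold), and Mup1 (chr4:60498012-60501960), at 3.24, 19.0 and 22.9 CPM against 0.42, 0.17 and 0.37 CPM (46.3-fold). In scrambled library 30 the value of Mup1 rests on 12 counts, with an exact 95% Poisson interval of 6.20 to 21 counts that covers counting error only. Mup12 was the central copy in which library 3 stood highest, whereas library 2600 stood highest in the other 6.

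Summed, the 7 central copies held 157, 2193 and 3194 CPM in libraries 2, 3 and 2600 against 24.4, 18.5 and 26.0 CPM. This gives means of 1848 ± 1547 against 23.0 ± 3.94 CPM (SD, n = 3 each), a ratio of 80.4. With the 7 rows collapsed to 1 before the fit the log2 difference was 6.33 ± 0.95 (SE). The log2 ratio of the sum was 6.87 when library 2 was left out and 5.68 when library 2600 was. Single copies moved in the same way: without library 2 the log2 difference was 9.25 for Mup7, 6.62 for Mup11, 6.24 for Mup15, 6.19 for Mup14, 5.98 for Mup1, 5.79 for Mup17 and 5.46 for Mup12, and without library 2600 it was 7.94 for Mup7, 4.96 for Mup14 and 4.59 for Mup17.

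**Figure D1:**
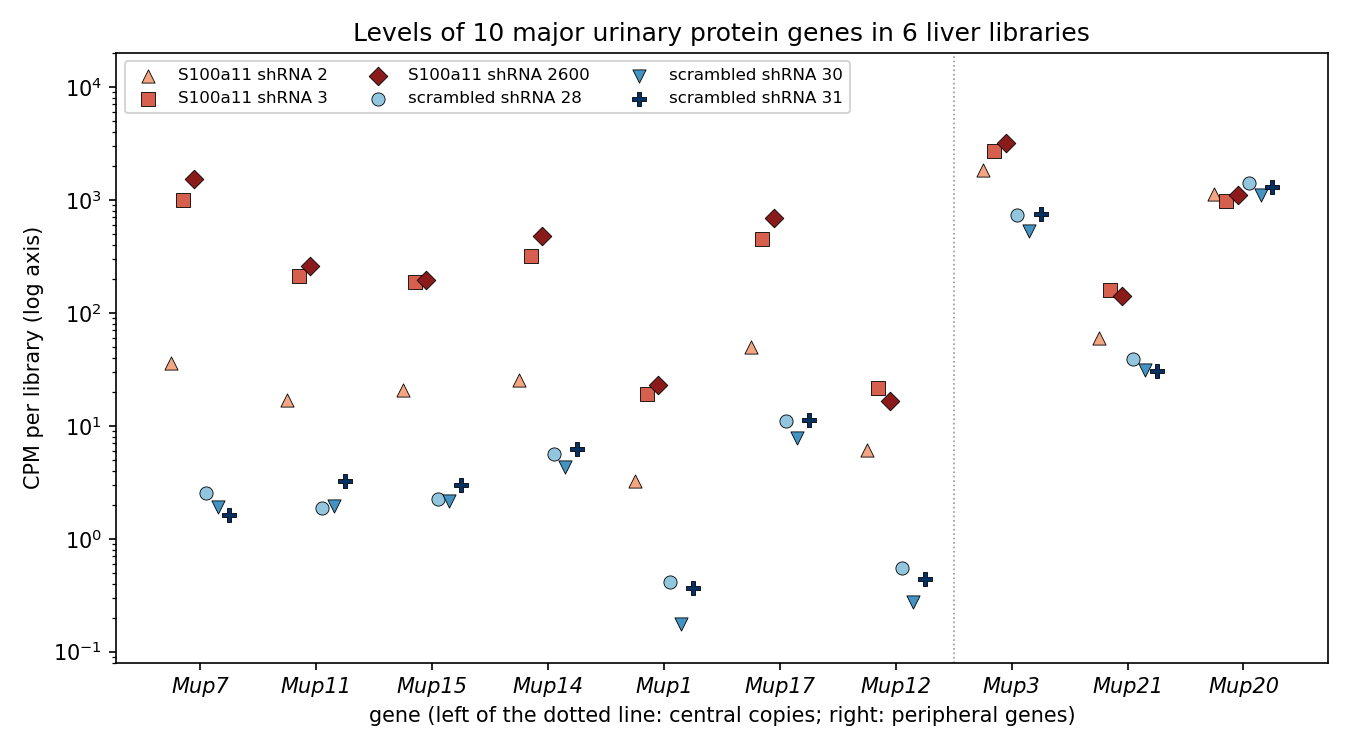
Level of each of the 10 Mup genes in each of the 6 libraries (points), in CPM on a log axis, with central copies left of the dotted line and peripheral genes right of it. The 7 central copies lie between 0.17 and 11.2 CPM in the scrambled libraries and between 3.24 and 1529 CPM in the libraries labelled S100a11 shRNA, with library 2 in between, while the 6 points of Mup20 lie together near 1000 CPM.

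The peripheral genes were abundant in all 6 libraries and did not move as one. Mup3, at chr4:62083476-62087342, stood at 1825, 2723 and 3194 CPM in libraries 2, 3 and 2600 and at 735, 532 and 746 CPM in the scrambled libraries. The groups did not overlap, and the fitted difference was 3.85-fold, or 1.94 ± 0.27 (SE) on the log2 scale. Mup21, at chr4:62147932-62150863, stood at 59.6, 160.6 and 141 CPM against 39.1, 30.9 and 30.8 CPM, a difference of 3.58-fold, again with no overlap. Library 2 was again the lowest of its group for both genes, though only 1.49-fold below library 3 for Mup3, against 27.7-fold for Mup7. Without library 2 the log2 differences were 2.11 for Mup3 and 2.13 for Mup21. Scaled by library totals alone that of Mup3 was 1.57.

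Mup20, the darcin gene at chr4:62050234-62054158, was the exception. It stood at 1131, 982 and 1095 CPM in libraries 2, 3 and 2600 and at 1413, 1117 and 1298 CPM in the scrambled libraries. The groups overlapped, since library 2 was above scrambled library 30. The means were 1069 ± 78.0 and 1276 ± 149 CPM (SD, n = 3 each), and the fitted log2 difference was -0.25 ± 0.18 (SE). It stayed between -0.34 and -0.17 with each library left out in turn, and was -0.61 with library totals alone. The summed peripheral genes held 3016, 3866 and 4430 CPM against 2188, 1680 and 2074 CPM, a ratio of 1.90. In the fit across all genes 9 of the 10 Mup genes passed the threshold as higher and 0 as lower, where 5.82% of all tested genes passed as higher and 8.28% as lower. The groups did not overlap, with the S100a11 shRNA libraries higher, in 9 of 10, against 16.5% of all tested genes. Since the choice of genes used this contrast, nothing is read from these counts.

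The makeup of the family changed with its total. The 10 genes together held 3174, 6059 and 7624 CPM in libraries 2, 3 and 2600 against 2212, 1698 and 2101 CPM, with means of 5619 ± 2257 and 2004 ± 270 CPM (SD, n = 3 each) and a ratio of 2.80. As a share of all counts, with no scaling factor, they took 0.296%, 0.543% and 0.626% against 0.244%, 0.202% and 0.233%. In the scrambled libraries Mup20 held 61.8% to 65.8% of the counts of the 10 genes, Mup3 31.3% to 35.5% and the central copies together 1.09% to 1.24%. In libraries 2, 3 and 2600 Mup20 held 14.4% to 35.7%, Mup3 41.9% to 57.5% and the central copies 4.96% to 41.9%. Mup7 alone went from a mean of 0.102 ± 0.021% (SD, n = 3) to a mean of 12.5%, between 1.13% and 20.1%. These are shares of counts and are not corrected for gene length.

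**Figure D2:**
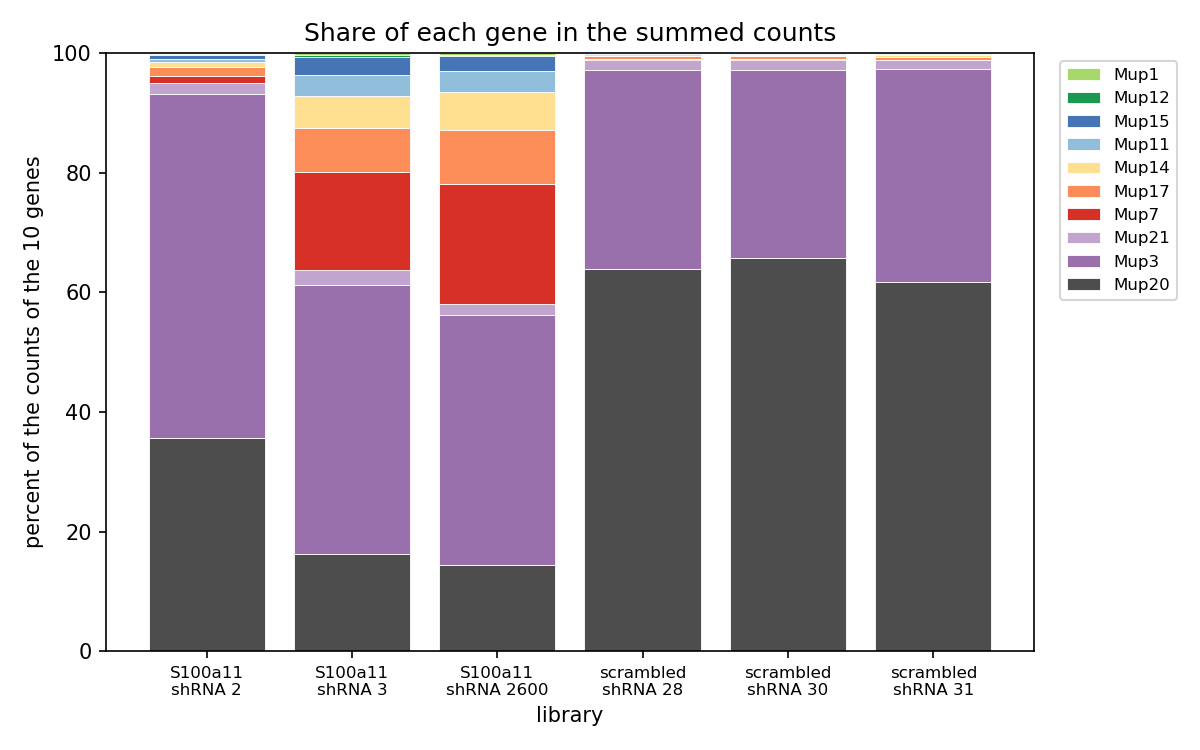
Percent of the summed counts of the 10 Mup genes held by each gene (stacked colours, adding to 100) in each library (bars). Mup20 and Mup3 fill nearly the whole bar in the scrambled libraries, Mup20 shrinks in libraries 2, 3 and 2600, and the central copies take 4.96% to 41.9% there.

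Ratios within a library, which no scaling can alter, showed the same shift. Mup3 over Mup20 was 1.61, 2.77 and 2.92 in libraries 2, 3 and 2600 and 0.520, 0.476 and 0.575 in the scrambled libraries, so the more abundant of the pair by count changed between the groups. The ratio of Mup7 to Mup17, both central copies, was 0.723, 2.21 and 2.23 against 0.230, 0.246 and 0.146. Mup7 therefore held 22.7%, 45.1% and 47.9% of the counts of the central copies, against 6.25% to 10.5% in the scrambled libraries, where Mup17 held 42.1% to 45.7%. By contrast Mup21 over Mup3 overlapped, at 0.033, 0.059 and 0.044 against 0.053, 0.058 and 0.041. Mup21 and Mup3 are the most alike of the peripheral genes in sequence. The ratio of Mup7 to Mup17 and the shares within the central copies also depend on how shared reads were counted, which is not stated.

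Levels of different genes were ranked as CPM per kilobase, with the gene lengths of the deposited table. In the scrambled libraries Mup20 was highest (mean 1375 ± 161, SD, n = 3), followed by Mup3 (628 ± 113), Mup21 (49.6 ± 7.06), Mup17 (10.8 ± 2.09), Mup14 (3.88), Mup15 (2.66), Mup7 (1.97), Mup11 (1.49), Mup12 (0.46) and Mup1 (0.20). Neighbours in this order whose ranges overlapped were Mup14 with Mup15, Mup15 with Mup7, and Mup7 with Mup11. In the libraries labelled S100a11 shRNA the order began with Mup3 (2417 ± 651), Mup20 (1152 ± 84.0), Mup7 (824 ± 732) and Mup17 (425 ± 347). Mup14 (199), Mup21 (178), Mup15 (145), Mup11 (104), Mup12 (15.9) and Mup1 (9.50) followed. Here Mup3 and Mup20 were the neighbours without overlap, and the ranges of all later neighbours overlapped.

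The other coding Mup genes are rows that the choice by symbol left out. Of these 11, 10 passed as higher, where 5.82% of all tested genes did. Their median log2 difference was 3.49, against 0.04 for all genes. The highest was 4.35, where the lowest of the central copies was 5.12, but the central copies were chosen by their differences. All but Mup4, Mup5 and Mup6 shared 69.4% (Mup8) to 100% (Mup19) of their 100-base stretches with another gene. Their counts may therefore not be separate from those of the 10 Mup genes. Mup9, at 2.20, 13.9 and 18.2 CPM against 0.52, 0.47 and 0.67 CPM, was 20.4-fold higher (edgeR adjusted p = 0.0075), and Mup16, at 8.23, 34.6 and 42.8 CPM against 1.96, 1.38 and 2.31 CPM, was 15.1-fold higher (adjusted p = 0.0053). Mup9 and Mup16 shared 71.9% and 82.4% of their 100-base stretches with another gene. Mup4 shared no stretch of 100 bases with another gene, and 12.4% of those of 50 bases. It stood at 3.86, 17.3 and 12.2 CPM against 0.09, 0.93 and 1.12 CPM and was 15.2-fold higher (adjusted p = 0.011). Mup6, which shared no stretch of 100 bases either, stood at 0.26 to 1.09 against 0.07 to 0.21 CPM and was 5.05-fold higher (adjusted p = 0.036). Mup5, with 1.33% shared, was the exception, at 0.60, 1.15 and 1.71 against 0.07, 0.09 and 0.73 CPM (log2 difference 1.82, adjusted p = 0.12), but without scrambled library 31 its difference was 3.77 and passed (adjusted p = 0.021). Mup2, Mup8, Mup10, Mup13, Mup18 and Mup19 were 4.12-fold to 17.9-fold higher. The number that passed was 6 without library 3 and 6 without scrambled library 30. With each library left out in turn 6 of the 10, among them Mup4, Mup9 and Mup16, passed every time, while Mup6 passed only without library 2 (adjusted p up to 0.12). Together the 11 rows held 48.1, 194 and 193 CPM against a scrambled mean of 13.3 ± 5.03 CPM (SD, n = 3).

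**Figure D3:**
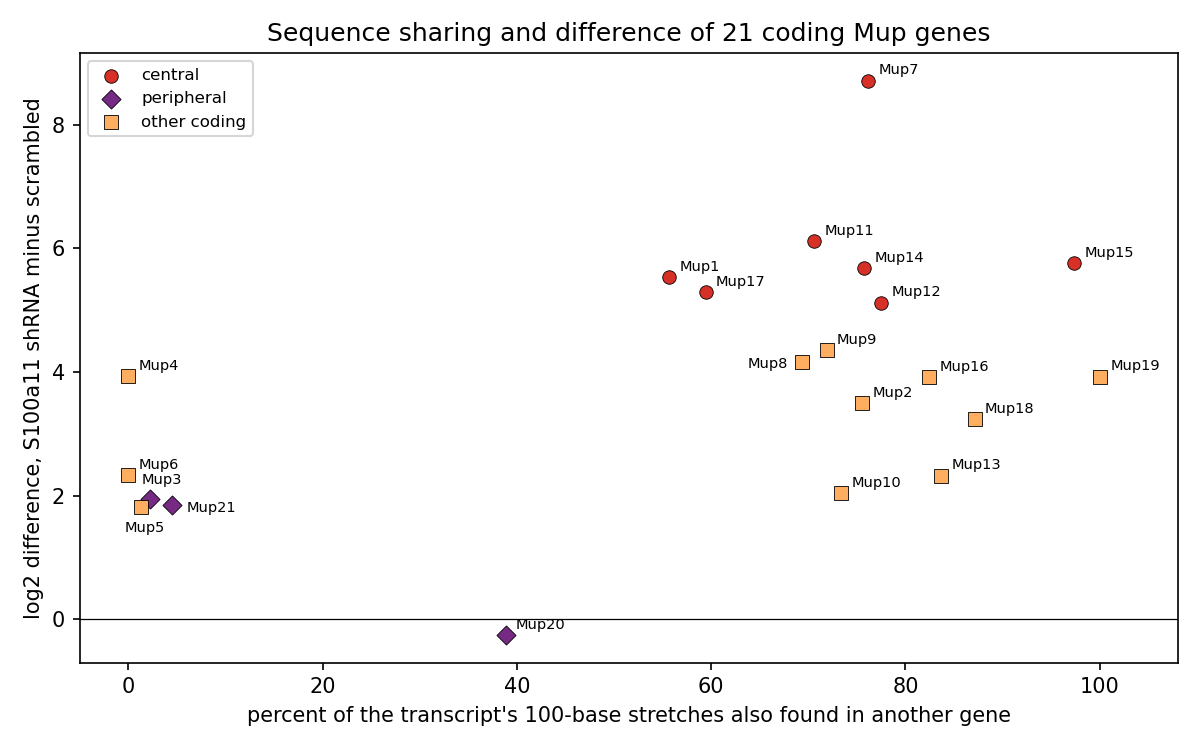
Fitted log2 difference between the groups (vertical) of the 21 coding Mup genes against the percent of 100-base stretches of their transcripts that another gene also holds (horizontal). Central copies lie at 55.7% to 97.3% shared and above 5 on the log2 scale, while Mup4 with 0 shared stretches lies near 4 and Mup20 with 38.8% lies just below 0.

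Of 30 Mup pseudogene rows 16 passed the low-count filter, 10 passed as higher and 1 as lower, and 5 as higher with limma voom and 7 with upper-quartile factors or library totals alone. Of all tested genes 5.82% passed as higher and 8.28% as lower, so 1 lower row of 16 is near the general share. The one that passed as lower was Mup-ps19, the pseudogene that shares sequence with Mup20. It stood at 35.6, 45.7 and 55.4 CPM in libraries 2, 3 and 2600 and at 66.1, 80.6 and 69.2 CPM in the scrambled libraries (log2 difference -0.66, edgeR adjusted p = 0.040). It did not pass without library 3 (adjusted p = 0.11) or without scrambled library 28, 30 or 31 (0.081, 0.16 and 0.094). Mup-ps20, between Mup-ps19 and Mup20 on the chromosome, had a log2 difference of -0.59 and did not pass (adjusted p = 0.18). With library totals alone Mup-ps20 passed as lower (log2 difference -0.96, edgeR adjusted p = 0.027). Without library 2 there were 15 pseudogenes higher, without library 3 only 1, without library 2600 there were 4, and without scrambled 28, 30 and 31 there were 3, 1 and 2. The highest pseudogene differences were those of Mup-ps18, 8.77-fold (adjusted p = 0.011), and Mup-ps7, 8.14-fold (adjusted p = 0.012). Summed, the 30 rows held 103, 190 and 164 CPM against 129, 130 and 121 CPM, and the groups overlapped.

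The cluster spans 2194 kb of chromosome 4 (mm10, chr4:59956804-62150863) with 50 of the 51 Mup rows, and the 7 central copies span 1529 kb of it. Along it the log2 differences were above 1.8 in the coding genes from Mup4 at the start to Mup5, -0.25 at Mup20, and 1.94 and 1.84 at Mup3 and Mup21 at the far end. The 5 nearest tested genes on each side, with predicted models and clones left aside, lay 38.7 to 518 kb away. They did not pass the threshold, where 14.1% of all tested genes did in either direction. These flanking genes were Susd1, Ptbp3, Hsdl2, Inip and Snx30 before the cluster and Zfp37, Slc31a2, Fkbp15, Slc31a1 and Cdc26 after it. Their log2 differences ran from -0.82 (Zfp37, adjusted p = 0.065) to 0.44 (Susd1, adjusted p = 0.089), and those of Ptbp3, Hsdl2, Slc31a2, Fkbp15 and Cdc26 changed sign under some alternatives. Zfp37 passed as lower with DESeq2 (adjusted p = 0.029), upper-quartile factors (0.047), library totals alone (0.012) and without library 2600 (0.041), and Snx30 with library totals alone (0.021). Inside the cluster the predicted gene Gm13775, which overlaps Mup-ps16, rose by 1.01 on the log2 scale (adjusted p = 0.024), though not without library 3, 28, 30 or 31 (0.064, 0.053, 0.103 and 0.078). Gm12909 and Gm12910 there had log2 differences of 0.49 and 0.62 and did not pass.

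**Figure D4:**
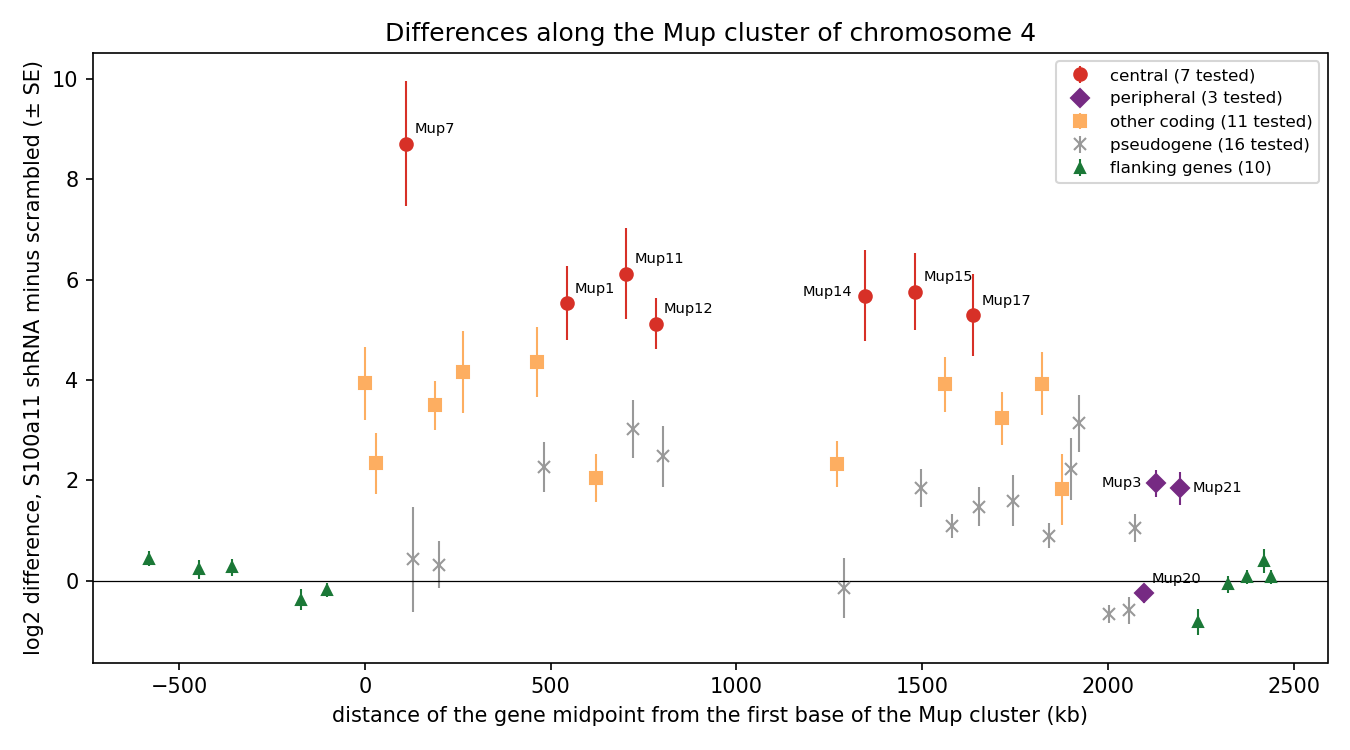
Fitted log2 difference (points, with SE bars) of every tested Mup row of chromosome 4 and of the 10 flanking genes, against the distance of the gene's midpoint from the first base of the cluster in kb. Central copies lie at 5.12 to 8.71, flanking genes between -0.82 and 0.44, and the points of Mup20, Mup-ps10, Mup-ps19 and Mup-ps20 below 0.

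Other genes whose pattern over the 6 libraries was most like that of the Mup genes were ranked by the root mean square difference of centred log2 CPM among 11943 genes. Nearest to the summed central copies was Hsd3b5, a steroid dehydrogenase of the male liver, at a distance of 0.97. It stood at 0.43, 24.5 and 4.84 CPM against 0.15, 0.12 and 0.12 CPM. These values rest on 28 counts in library 2 and on 10, 8 and 10 counts in the scrambled libraries, so its place in the ranking is uncertain. Next came the organic anion carrier Slco1a1 (1.07), the calpain Capn8 (1.16), the cytochrome Cyp2c54 (1.21) and the complement-related C4a (1.31). Slco1a1, at 38, 225 and 176 CPM against 4.52, 8.39 and 10.7 CPM, likewise had library 2 between the groups. Nearest to Mup3 were the nuclear receptor gene Nr1i3 (0.18), the glutamate carrier Slc1a2 (0.19) and the cytochrome Cyp2e1 (0.22), with Nr1i3 at 567, 1213 and 1145 CPM against 326, 191 and 273 CPM. Nearest to Mup21 were Acvr2b, Cadm4 and Npr2 (0.16 to 0.17). Nearest to Mup20 were Pigf, Synm and Vimp (0.044 to 0.055), none of which passed the threshold. With 6 libraries that differ by group this ranking is a description.

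Genes known to act on Mup transcription were taken as a list of 19, all tested, of which 7 passed as higher and 0 as lower, against 5.82% and 8.28% of all tested genes. The median log2 difference was 0.46, against 0.04 for all genes. Ppara, the fatty acid sensing nuclear receptor, stood at 436, 491 and 411 CPM against 263, 248 and 274 CPM (log2 difference 0.77, edgeR adjusted p = 0.012). Cebpb, a C/EBP factor, stood at 82.1, 77.2 and 71.6 against 30.1, 48.4 and 49.1 CPM (0.86, adjusted p = 0.022). Among the others that rose were the forkhead factor Foxa1 (0.70), the oestrogen receptor Esr1 (1.16) and the thyroid hormone receptor Thrb (0.46), with adjusted p from 0.026 to 0.046. These calls hold by a small margin: with 1 library left out 0 to 8 of the 19 passed, namely 8 without library 2, 1 without library 3, 6 without library 2600, 2 without scrambled library 28, 0 without 30 and 3 without 31. With library totals alone 0 passed and with DESeq2 11 did.

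Stat5b, the factor through which growth hormone acts on these genes, stood at 101, 103 and 139 CPM against 107, 91.7 and 91.5 CPM and did not pass (log2 difference 0.25, edgeR adjusted p = 0.35). With library totals alone its difference was -0.12. Zhx2 stood at 43.7, 48.8 and 64.5 against 34.7, 32.5 and 38.1 CPM, with no overlap and an adjusted p of 0.052. Hnf4a (0.45, adjusted p = 0.12), the glucocorticoid receptor gene Nr3c1 (0.42, adjusted p = 0.078) and Bcl6 (-0.21, adjusted p = 0.77), which opposes Stat5 in male liver, did not pass either. With DESeq2 Zhx2, Hnf4a and Nr3c1 passed as higher (adjusted p = 0.021, 0.046 and 0.040).

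Of 22 genes of the growth hormone axis 4 passed as higher and 0 as lower, against 5.82% and 8.28% of all tested genes, with a median log2 difference of 0.33 against 0.04. The receptor Ghr stood at 612, 671 and 473 CPM against 302, 295 and 367 CPM (log2 difference 0.87, edgeR adjusted p = 0.018). Igfals, the acid-labile subunit that carries insulin-like growth factors in blood, stood at 113, 149 and 114 against 58.9, 50.3 and 59.9 CPM (1.15, adjusted p = 0.0049). The binding protein Igfbp4 (0.84, adjusted p = 0.021) and the prolactin receptor Prlr (1.08, adjusted p = 0.039) also rose. Igf1, the main product of growth hormone in liver, stood at 903, 524 and 515 against 314, 361 and 524 CPM and did not pass (0.70, adjusted p = 0.13), and neither did the growth hormone targets Cish (0.59) and Socs2 (0.31). Igf1 was highest in library 2, where the central Mup copies were lowest of their group. Igfals passed with each library left out in turn, whereas the number that passed was 6 without library 2, 2 without library 3 and 1 each without scrambled libraries 28 and 30.

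**Figure D5:**
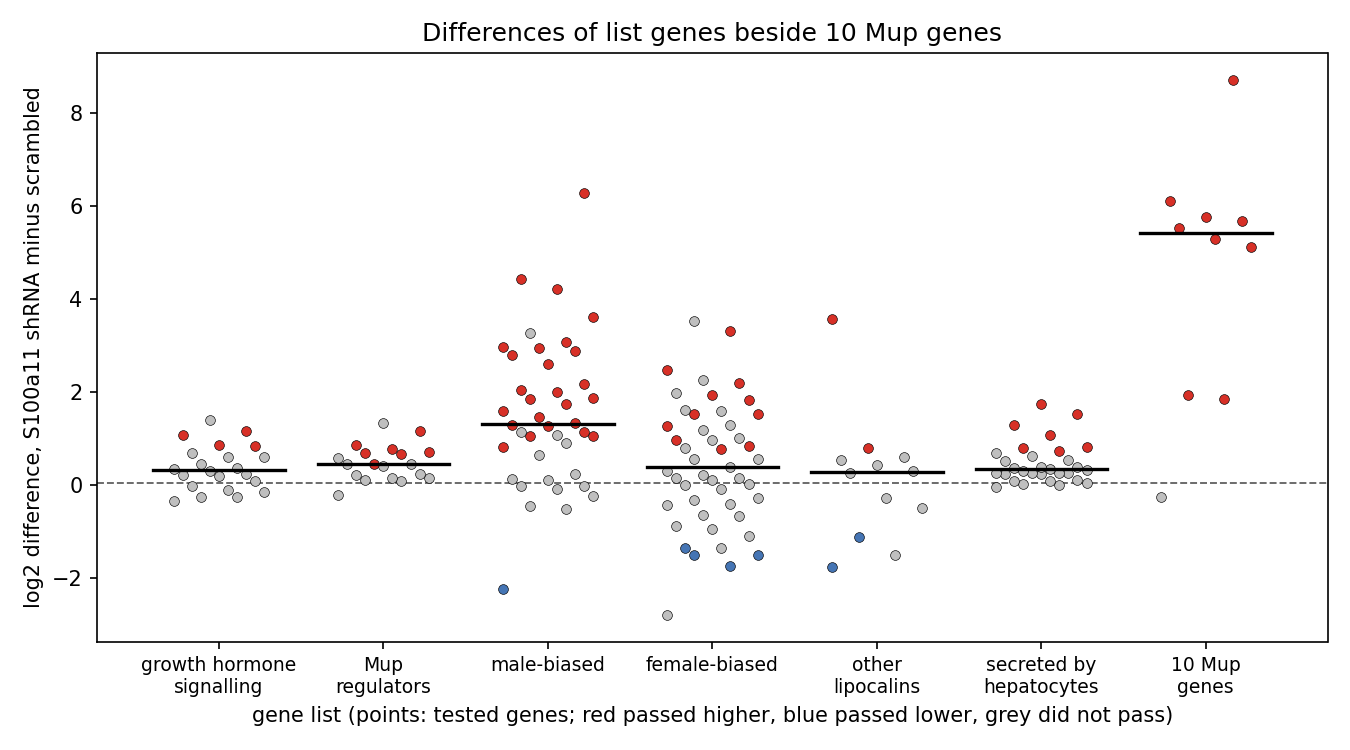
Fitted log2 difference of each tested gene (points) in 6 gene lists and of the 10 Mup genes, with red for those past the threshold as higher, blue for those past it as lower and grey for the rest. Horizontal bars are list medians, from 0.28 for other lipocalins to 1.32 for male-biased genes and 5.41 for the Mup genes, and the dashed line is the median of all tested genes, 0.04.

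Male-biased liver genes other than Mup genes, a list of which 40 were tested, gave 25 that passed as higher and 1 as lower, against 5.82% and 8.28% of all tested genes. The median log2 difference was 1.32, against 0.04 for all genes. All libraries carried Y-linked Ddx3y, at 77.0 to 110.1 CPM, and Xist at 0.70 CPM or less. Cml5, an acetyltransferase-related gene, stood at 13.9, 28.9 and 20.9 CPM against 2.65, 2.91 and 3.13 CPM (log2 difference 2.87, edgeR adjusted p = 0.0025), and its relative Nat8 had a difference of 1.87 (adjusted p = 0.0035). Capn8 (4.43), Slco1a1 (4.22), the fatty acid elongase Elovl3 (3.62) and the oxysterol hydroxylase Cyp7b1 (2.60) followed, with adjusted p from 0.0049 to 0.0079. Elovl3 stood at 46.9, 131 and 259 CPM against 15.8, 11.7 and 8.05 CPM, with library 2 lowest of its group. The gene that fell, Cib3, stood at 2.28, 0.29 and 2.41 against 6.38, 7.15 and 9.68 CPM (adjusted p = 0.030). The number that passed as higher was 27 without library 2, 17 each without library 3, scrambled 28 and scrambled 31, and 10 without scrambled 30. Cib3 did not pass without scrambled 28, 30 or 31, where 0 genes of the list fell.

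Of 47 tested female-biased genes 11 passed as higher, against 5.82% of all tested genes, and 4 as lower, a share near the 8.28% of all tested genes. Their median log2 difference was 0.38, against 0.04 for all genes. Serpina6, which encodes the corticosteroid carrier of blood, stood at 266, 322 and 197 against 107, 57.0 and 106 CPM (log2 difference 1.54, edgeR adjusted p = 0.0097). The thioesterase Acot3 (3.31, adjusted p = 0.012), the fatty acid hydroxylase Cyp4a10 (2.19, adjusted p = 0.017) and the carrier Slc22a26 (2.48, adjusted p = 0.019) also rose. Atp6v0d2, a proton pump subunit, stood at 6.57, 3.93 and 4.14 against 18.0, 12.9 and 18.4 CPM and fell (-1.75, adjusted p = 0.0051), as did the membrane protein Prom1 (-1.36, adjusted p = 0.012), which biliary cells also make. Among the most female-biased genes Cyp2b9 stood at 0.08, 13.1 and 45.8 against 75.3, 31.9 and 43.0 CPM, with overlap, and did not pass (adjusted p = 0.47). Rises numbered 13, 7 and 11 without libraries 2, 3 and 2600 and 4, 2 and 8 without scrambled 28, 30 and 31, and falls 7, 1 and 3, and 3, 2 and 2. Whether the male-biased and female-biased lists differ was not tested.

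Other lipocalins, the wider protein family of the Mups, gave 2 rises and 2 falls among 12 tested genes of 18 in the table, where 5.82% of all tested genes rose and 8.28% fell, with a median log2 difference of 0.28 against 0.04. Lcn2, an acute phase iron-siderophore carrier, stood at 59.0, 32.5 and 60.1 CPM against 167, 182 and 162 CPM and fell (log2 difference -1.75, edgeR adjusted p = 0.0045). Orm2, an acute phase glycoprotein, fell by 1.12 on the log2 scale (adjusted p = 0.0099), though its adjusted p was 0.051 without scrambled library 30. The retinol carrier Rbp4 rose by 0.79 (adjusted p = 0.023) and the scarce odorant binding protein gene Obp2a, at 0.26 to 1.18 against 0.03 to 0.10 CPM, rose by 3.56 (adjusted p = 0.015). No rise of the list passed without library 3 or scrambled 30 or 31, where the count was 0.

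Abundant secreted proteins of hepatocytes gave 7 rises, that of Rbp4 among them, and 0 falls among 30, beside the same 5.82% and 8.28% of all tested genes, with a median log2 difference of 0.34 against 0.04. Serpina1c, one of several near-identical antitrypsin copies whose reads may likewise be divided arbitrarily, stood at 728, 1008 and 937 CPM against 338, 280 and 312 CPM (log2 difference 1.52, edgeR adjusted p = 0.0035). Serpina1a (0.81), Serpina1b (0.73), Serpina1d (1.08) and Serpina3k (1.74) also rose, with adjusted p from 0.012 to 0.034. Albumin, Alb, stood at 31083, 23585 and 21195 against 22247, 18116 and 22845 CPM, with overlap (0.26, adjusted p = 0.73). The number of rises was 10 without library 2, 2 without library 3, 5 without 2600 and 3, 1 and 2 without scrambled 28, 30 and 31.

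The summed markers of hepatocytes, cholangiocytes, stellate cells, macrophages and lymphocytes did not overlap between the groups, while those of endothelial cells did. Of all tested genes, taken singly, 34.7% did not overlap either. The summed level of 10 hepatocyte markers was 36870 to 47640 CPM in libraries 2, 3 and 2600 against 27946 to 34426 CPM, and 4 of them passed as higher. The sum of 9 cholangiocyte markers was 122 to 141 against 471 to 590 CPM, with 8 lower, and that of 10 stellate cell markers 478 to 881 against 1079 to 1550 CPM, with 7 lower. Of 10 macrophage markers 4 passed as lower and 1 as higher (sums 251 to 461 against 494 to 727 CPM), of 9 endothelial markers 1 each way (819 to 1192 against 858 to 943 CPM), and of 9 lymphocyte markers 1 as lower (17.4 to 21 against 30.9 to 64.1 CPM). Of all tested genes 5.82% passed as higher and 8.28% as lower. Single calls in a list of 9 or 10 are near those shares, and nothing is read from them. The 10 Mup genes are hepatocyte products, and in bulk tissue fewer cells of a type and less RNA per cell cannot be told apart. Over all 6 libraries the hepatocyte sum ran from 27946 to 47640 CPM, and that of the central Mup copies from 18.5 to 3194 CPM. For glands that also make Mup proteins, Prol1, Lcn11 and Scgb2b24 were at 0 in all libraries, and Bpifa2, Aqp5 and Smgc at 0.22 CPM or less. Amy1, which liver also makes, was the gland marker that passed the low-count filter, and at 129, 156 and 129 CPM against 80.8, 51.3 and 64.8 CPM it rose with no overlap (log2 difference 1.07, edgeR adjusted p = 0.0089). The part of these cell types in the Mup differences was not tested beyond these values.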

How the data were processed

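Total RNA of 6 liver samples, depleted of ribosomal RNA, was made into stranded libraries from 100 ng, per the labels' protocols. The deposited values are the authors' raw read counts per Ensembl gene, and the gene length column was also used as deposited. The genome build mm10 comes from the submitters' processing notes. The aligner, counter, strand setting and handling of reads that match several genes are not stated.

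The test was run with edgeR 4.0.16 in R 4.3.3 (filterByExpr with minimum count 10 and total 15, TMM factors, quasi-likelihood F test, Benjamini-Hochberg adjustment over 19352 genes, threshold 0.05). The fit used all 6 libraries. CPM were computed on TMM-scaled library totals, and log2 CPM for the pattern ranking used a prior count of 2. The summed central copies were ranked against without a prior count. Mup genes and the gene lists were chosen with earlier results of these data known. The 10 Mup genes are described without a test. Named genes were all Mup rows, genes of the growth hormone and regulator lists past the threshold (some are not reported here), the first 6 by p past it in the other lists, the flanking genes and those nearest in pattern. Other genes are named beside their list after their values were seen. No pair of replicates agreed within sampling noise, and by the chi-square statistic library 2 differed more from its own group than from the controls.

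Alternatives were RLE and upper-quartile factors, library totals alone, no filter, at least 1 CPM in 3 libraries, DESeq2 1.42.0, limma 3.58.1 voom, scaling without Mup rows and Gm26917, a prior count of 2, central copies as 1 row, and each library left out. On simulated data, with 200 genes changed of 19039 tested, edgeR recovered 4.35% of 1.5-fold changes, 40.8% of 2-fold changes and 89.5% of 4-fold changes, and 9 of its 92 calls were false.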

Additional observations from a re-analysis of the deposited data

How the results depend on the processing

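Of 153 values of the 10 Mup differences under other settings 151 lay within the spread between replicates of the reported value and 0 changed sign. The 2 that moved were those of Mup3 (1.57) and Mup20 (-0.61) with library totals alone, where the summed peripheral genes had a log2 ratio of 0.56. That spread is wide for the central copies: limma voom gave 7.61 for Mup7, 5.43 for Mup11, 5.22 for Mup15, 4.90 for Mup14, 4.66 for Mup17 and 5.12 for Mup1. No paired analysis was possible because the groups share no replicate number. With library totals alone, all differences shift down: 397 genes were higher and 3970 lower, 1 growth hormone gene was higher and 2 lower, 0 Mup regulators were higher, 2 male-biased genes were lower, 6 female-biased genes were higher and 8 lower, 1 lipocalin was higher and 3 secreted hepatocyte genes were higher. Relative to all genes the median of male-biased genes was 1.28, but 0.96 without library 3 and 1.58 without library 2. Mup regulators numbered 11 with DESeq2, and 1 lipocalin was higher with at least 1 CPM in 3 libraries.

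With each library left out, higher genes numbered 221 to 1806 and lower genes 503 to 2370. Higher growth hormone genes numbered 1 to 6, higher Mup regulators 0 to 8, higher male-biased genes 10 to 27 and lower ones 0 to 2. Female-biased genes gave 2 to 13 higher and 1 to 7 lower, lipocalins 0 to 2 higher and 1 to 2 lower, and secreted hepatocyte genes 1 to 10 higher. The low ends came without scrambled library 30 or, for lower female-biased genes, without library 3.

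Sign changes among the named genes concerned those that did not pass the threshold. With library totals alone the log2 difference was -0.040 for Socs2, -0.12 for Stat5b, -0.13 for Ptbp3, -0.089 for Hsdl2, -0.081 for Alb, -0.28 for Cdc26 and -0.29 for Fkbp15. With upper-quartile factors it was -0.017 for Cdc26 and -0.022 for Fkbp15. With each library left out Socs2 ran from -0.043 to 0.54, Bcl6 from -0.55 to 0.14, Ptbp3 from -0.0056 to 0.36, Fkbp15 from -0.014 to 0.15 and Slc31a2 from -0.15 to 0.0082. The cause of these changes was not tested. Depth limits Mup1 and Mup12 in the scrambled libraries, where 12 to 38 counts were read.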
